A study of Mus musculus with 10 samples.

Results

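Microglia are the resident macrophages of the brain, and 9 genes that mark them in their resting, surveying state were followed in the hippocampus of mice after subarachnoid hemorrhage (SAH), a bleed into the space around the brain. The genes were P2ry12, P2ry13, Gpr34, Cx3cr1, Siglech, Fcrls, Tmem119, Olfml3 and Sall1, chosen by name as markers of resting microglia. All 9 were found among the 24391 gene names of the count tables, and all 9 passed the filter on low counts that left 14993 genes for testing.

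RNA sequencing was done on the bilateral whole hippocampus of 10 mice, 1 library per mouse, at 4 days after surgery. All were male C57BL/6J mice (written C56BL/6J in the study's methods) of 10 to 14 weeks, with no genetic change stated. No drug treatment was stated apart from isoflurane anesthesia for the surgery. In the 4 SAH mice (numbered 1 to 4) a filament passed through the carotid artery punctured the circle of Willis on one side, and only mice whose cerebral blood flow dropped sharply at that moment were kept. In the 3 Sham mice (5 to 7) the filament was advanced and drawn back without a puncture, and the 3 Naive mice (8 to 10) had no surgery. The Sham and Naive mice together are the 6 control mice.

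In the healthy brain these genes form the best known signature of microglia, and macrophages that enter from the blood or line the brain's borders carry little of most of it, though Cx3cr1 is also made by blood monocytes and border macrophages. Their products sense the surroundings: receptors for nucleotides, lysophospholipid and the neuronal chemokine fractalkine, a sialic acid-binding lectin and an Fc receptor-like protein sit on the cell surface, and the transcription factor SALL1 keeps the program on. Transforming growth factor beta (TGF-beta) and signals through the receptor CSF1R maintain it, and in many forms of injury the signature falls while genes of phagocytosis and lysosomes rise.

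The libraries held 19743388 to 27254655 counts each, and no pair was alike enough to be 1 library deposited in duplicate. Counts were scaled to a common library size (CPM) by the trimmed mean of M-values (TMM). A log2 fold change was called at an adjusted p under 0.10, the false discovery rate used in the study, and SE stands for the standard error of such a change in the quasi-likelihood fit of edgeR. SAH mouse 3 was the library farthest from the rest over all genes, with a chi-square per gene of 15.32 to 26.95 against each other library, where all remaining pairs had 3.62 to 16.48. Results that rest on it are given with and without it. All 8 hippocampal neuron markers followed had counts in each group, and their summed level ranged from 3432.2 to 3719.4 CPM over the control mice and from 3547.3 to 3698.4 CPM over the SAH mice.

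Before the values, the stretch in front of the gene is shown for 5 members: the nucleotide receptors P2ry12 and P2ry13, the fractalkine receptor Cx3cr1, and Fcrls and Olfml3, whose levels differed most between SAH and control. Each sequence is the 250 bases before the RefSeq start site in GRCm38.p6, 5′ to 3′ on the gene's strand, which is the minus strand for all 5. They lie at chr3:59262986-59263235 for P2ry12, chr3:59210883-59211132 for P2ry13, chr9:120068297-120068546 for Cx3cr1, chr3:87263525-87263774 for Fcrls and chr3:103738002-103738251 for Olfml3. Capitals mark the core of the site bound by PU.1 (GAGGAA), the factor that sets up the myeloid lineage, and the short SMAD site (CAGAC) used by the TGF-beta pathway, each on either strand.
P2ry12: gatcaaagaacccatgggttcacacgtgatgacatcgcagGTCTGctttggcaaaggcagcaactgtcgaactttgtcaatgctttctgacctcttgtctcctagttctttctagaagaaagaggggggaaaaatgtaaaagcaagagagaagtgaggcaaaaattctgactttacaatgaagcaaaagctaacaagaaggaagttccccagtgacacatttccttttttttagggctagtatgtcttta
P2ry13: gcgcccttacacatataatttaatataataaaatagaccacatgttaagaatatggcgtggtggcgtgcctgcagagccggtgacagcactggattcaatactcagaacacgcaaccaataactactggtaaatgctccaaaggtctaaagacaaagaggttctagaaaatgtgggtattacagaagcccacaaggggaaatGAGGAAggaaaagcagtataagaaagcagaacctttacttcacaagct
Cx3cr1: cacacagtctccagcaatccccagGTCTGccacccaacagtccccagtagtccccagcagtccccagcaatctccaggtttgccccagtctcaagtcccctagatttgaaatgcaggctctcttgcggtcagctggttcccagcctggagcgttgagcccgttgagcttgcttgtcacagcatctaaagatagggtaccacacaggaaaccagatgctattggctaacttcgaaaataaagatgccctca
Fcrls: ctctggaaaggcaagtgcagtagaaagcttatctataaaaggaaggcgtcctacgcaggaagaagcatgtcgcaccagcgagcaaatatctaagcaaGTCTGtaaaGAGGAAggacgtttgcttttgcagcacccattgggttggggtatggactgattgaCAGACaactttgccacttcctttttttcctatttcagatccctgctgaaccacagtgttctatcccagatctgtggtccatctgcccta
Olfml3: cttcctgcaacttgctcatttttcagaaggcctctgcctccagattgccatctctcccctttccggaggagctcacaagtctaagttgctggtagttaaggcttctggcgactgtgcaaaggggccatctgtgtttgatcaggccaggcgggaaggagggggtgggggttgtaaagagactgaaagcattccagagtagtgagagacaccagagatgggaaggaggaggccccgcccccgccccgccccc

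Of the 9 genes, 7 had an entry in the RefSeq promoter table, and Gpr34 and Tmem119 did not. With 3 entries for Sall1 these made 9 promoters. The PU.1 core stood in 2 of the 9, starting 48 bases before the P2ry13 start and 144 bases before the Fcrls start, against 23.3% of all 32851 promoters in the table. The SMAD letters stood in 5 of the 9 (P2ry12, Cx3cr1, Siglech, Fcrls and the first of 3 Sall1 promoters), against 42.2% of all. The joint site of PU.1 and IRF factors, searched on both strands, stood in 0 of the 9 and in 2.3% of all. The PU.1 core shares letters with the joint site, and such matches describe letters only.

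P2RY12 is the ADP receptor by which microglia send processes toward injured cells, and P2ry12 (chr3:59020193-59066753, mm9, minus strand, 4 exon blocks) lies inside the gene Med12l on the other strand, with no shared exon bases. Its level was 48.4, 44.3, 35.5 and 47.8 CPM in SAH mice 1 to 4, 43.0, 47.9 and 51.7 CPM in Sham mice 5 to 7, and 42.1, 41.4 and 46.4 CPM in Naive mice 8 to 10. SAH mouse 3 was the lowest of the 10 and the other 3 SAH mice lay inside the control range. The mean was 44.0 ± 5.92 CPM in SAH (SD, n = 4) and 45.4 ± 3.98 CPM in control (SD, n = 6). Its log2 fold change, -0.05 (SE 0.086, 95% interval -0.23 to 0.14, adjusted p = 0.812 by edgeR), was within the spread between mice. In bulk tissue, fewer microglia and less RNA of a gene per microglia cannot be told apart.

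P2ry13 encodes a second ADP receptor, which lies beside P2ry12 (chr3:59011814-59014804, minus strand, 2 exon blocks) and also inside Med12l. Its level was 16.1, 14.9, 6.57 and 17.7 CPM in SAH mice 1 to 4, 13.6, 16.1 and 15.5 CPM in the Sham mice, and 12.1, 12.7 and 17.0 CPM in the Naive mice. SAH mouse 3 held 45.3% of the control mean, on 130 read pairs, and SAH mouse 4 was the highest of the 10. The SAH mean of 13.8 ± 4.97 CPM (SD, n = 4) and the control mean of 14.5 ± 1.97 CPM (SD, n = 6) gave a log2 difference of -0.06 (SE 0.20, interval -0.49 to 0.37, adjusted p = 0.904 by edgeR). This interval was the widest of the 9 genes. Med12l itself had 51.2 ± 3.09 CPM in SAH (SD, n = 4) and 52.8 ± 3.16 CPM in control (SD, n = 6), with a log2 difference of -0.04 (adjusted p = 0.726 by edgeR), and its level in SAH mouse 3, 52.2 CPM, was not low.

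Gpr34 encodes a receptor for lysophosphatidylserine and lies inside Cask on the other strand (chrX:13209895-13217984, plus strand, 3 exon blocks, no shared exon bases). It had 14.6, 13.1, 7.28 and 14.9 CPM in SAH mice 1 to 4, 11.9, 12.4 and 13.4 CPM in the Sham mice and 11.2, 11.9 and 12.9 CPM in the Naive mice. SAH mice 1 and 4 were the highest pair of the 10 and SAH mouse 3 the lowest, at 59.3% of the control mean. The means were 12.5 ± 3.55 CPM in SAH (SD, n = 4) and 12.3 ± 0.794 CPM in control (SD, n = 6), with a log2 difference of 0.03 (SE 0.15, interval -0.29 to 0.35, adjusted p = 0.946 by edgeR). A further 9 gene names whose listed spans cover Gpr34 had 0 counts. For Cask, SAH mouse 3 had 75.0 CPM and the control mice 73.3 to 76.4 CPM.

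CX3CR1 is the receptor for fractalkine, through which neurons hold microglia in check, and Cx3cr1 (chr9:119957801-119977414, minus strand, 2 exon blocks) had the most read pairs of the 9 genes. The name Cdkn2d is listed at separate places on either side of it and shares no exon bases with it. The level of Cx3cr1 was 58.5, 53.4, 39.3 and 58.2 CPM in SAH mice 1 to 4, 53.4, 56.9 and 57.3 CPM in the Sham mice, and 53.9, 50.8 and 55.9 CPM in the Naive mice. SAH mouse 3 lay far below a control range of 50.8 to 57.3 CPM, and SAH mice 1 and 4 lay just above it. The means, 52.3 ± 9.02 CPM in SAH (SD, n = 4) and 54.7 ± 2.48 CPM in control (SD, n = 6), gave a log2 difference of -0.06 (SE 0.09, interval -0.25 to 0.13, adjusted p = 0.756 by edgeR).

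Siglech encodes a sialic acid-binding lectin of microglia that signals through the adaptor DAP12 (chr7:63023548-63034203, plus strand, 6 exon blocks). It had 18.1, 16.2, 14.4 and 17.9 CPM in SAH mice 1 to 4, 16.1, 15.9 and 16.9 CPM in the Sham mice, and 15.4, 14.2 and 16.1 CPM in the Naive mice. It was the 1 gene of the 9 for which SAH mouse 3 was not the lowest of the 10, since Naive mouse 9 lay below it. The means of 16.6 ± 1.71 CPM in SAH (SD, n = 4) and 15.8 ± 0.881 CPM in control (SD, n = 6) gave a log2 difference of 0.08 (SE 0.074, interval -0.08 to 0.24, adjusted p = 0.627 by edgeR).

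Fcrls encodes an Fc receptor-like scavenger receptor found in mouse microglia (chr3:87054887-87067446, minus strand, 8 exon blocks). Its level was 38.9, 34.5, 26.6 and 36.3 CPM in SAH mice 1 to 4, 30.0, 27.2 and 32.3 CPM in the Sham mice, and 27.1, 29.4 and 29.8 CPM in the Naive mice. SAH mice 1, 2 and 4 lay above all 6 control mice and SAH mouse 3 below all of them. With all mice the means were 34.1 ± 5.29 CPM in SAH (SD, n = 4) and 29.3 ± 1.96 CPM in control (SD, n = 6), and the log2 fold change was 0.22 (SE 0.089, interval 0.03 to 0.41, unadjusted p = 0.0265, adjusted p = 0.224 by edgeR), which was not called. Leaving out SAH mouse 3 gave 0.32 (SE 0.062, interval 0.19 to 0.45, adjusted p = 0.0109 by edgeR), and the gene was called higher.

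Tmem119 encodes a membrane protein of unsettled function that serves as a microglia marker (chr5:114243738-114250361, minus strand, 2 exon blocks). It had 22.4, 21.1, 18.0 and 27.7 CPM in SAH mice 1 to 4, 20.6, 21.5 and 22.3 CPM in the Sham mice, and 20.9, 21.9 and 19.4 CPM in the Naive mice. SAH mouse 4 stood above the rest and SAH mouse 3 below them. The means of 22.3 ± 4.05 CPM in SAH (SD, n = 4) and 21.1 ± 1.04 CPM in control (SD, n = 6) gave a log2 difference of 0.08 (SE 0.094, interval -0.12 to 0.29, adjusted p = 0.679 by edgeR).

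Olfml3 encodes a secreted matrix protein of the olfactomedin family, made by microglia (chr3:103539317-103541924, minus strand, 3 exon blocks). Its level was 30.0, 23.8, 16.1 and 33.9 CPM in SAH mice 1 to 4, 21.2, 20.7 and 20.5 CPM in the Sham mice, and 20.2, 21.5 and 19.4 CPM in the Naive mice. The 6 control mice spanned 19.4 to 21.5 CPM, SAH mice 1, 2 and 4 lay above all of them and SAH mouse 3 below all of them. The means of 25.9 ± 7.77 CPM in SAH (SD, n = 4) and 20.6 ± 0.747 CPM in control (SD, n = 6) gave a log2 difference of 0.34 (SE 0.15, interval 0.02 to 0.65, unadjusted p = 0.0368, adjusted p = 0.256 by edgeR), which was not called. With SAH mouse 3 left out it was 0.50 (SE 0.085, interval 0.32 to 0.69, adjusted p = 0.00472 by edgeR), and the gene was called higher.

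Sall1 encodes the transcription factor that maintains microglial identity (chr8:91551143-91568061, minus strand, 4 exon blocks). It had 27.2, 25.7, 18.6 and 32.4 CPM in SAH mice 1 to 4, 25.0, 28.1 and 30.5 CPM in the Sham mice, and 28.4, 27.0 and 27.0 CPM in the Naive mice. SAH mouse 4 was the highest and SAH mouse 3 the lowest of the 10, at 67.2% of the control mean. The means of 26.0 ± 5.69 CPM in SAH (SD, n = 4) and 27.7 ± 1.81 CPM in control (SD, n = 6) gave a log2 difference of -0.09 (SE 0.11, interval -0.33 to 0.15, adjusted p = 0.724 by edgeR).

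**Figure D1:**
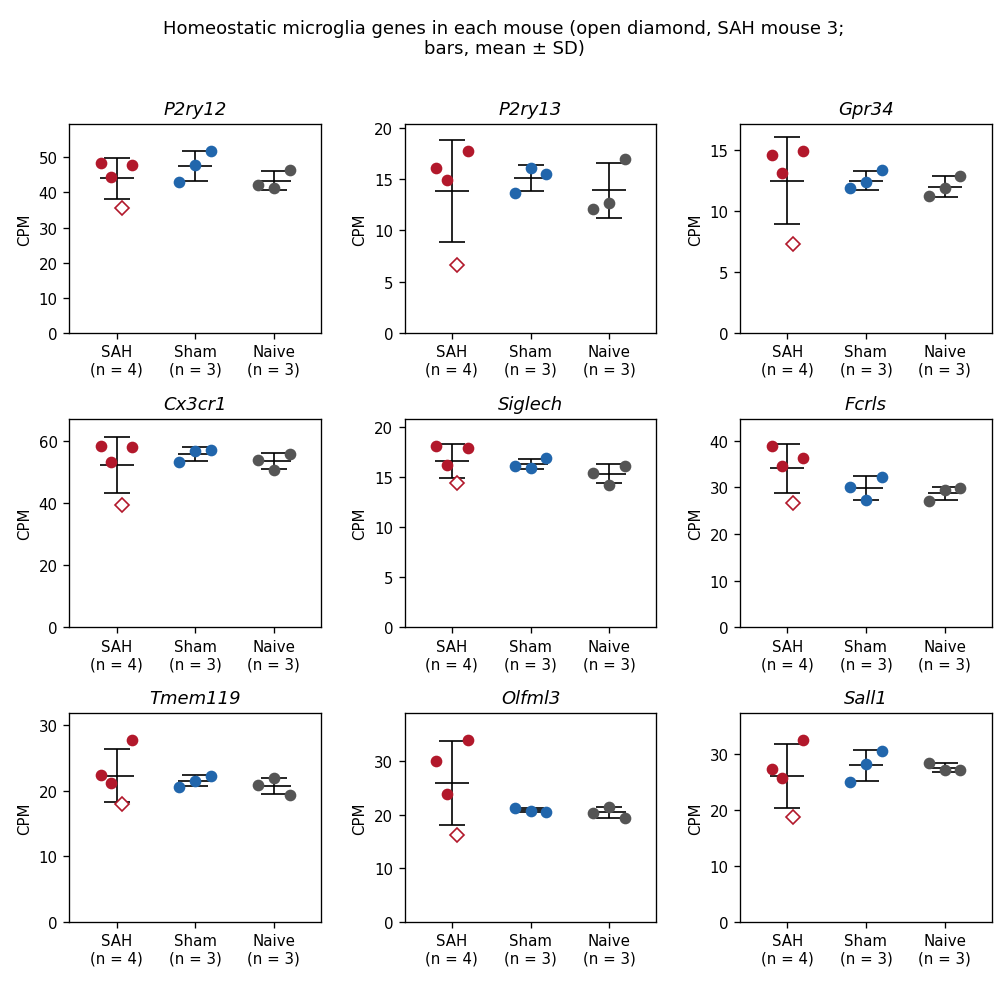
CPM of the 9 genes (vertical axes, each from 0) in the SAH, Sham and Naive mice, with 1 point per mouse, the mean and its SD as bars, and SAH mouse 3 as an open diamond. SAH mouse 3 is the lowest point in 8 of the 9 panels, and for Fcrls and Olfml3 the other 3 SAH mice lie above all control mice.

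The main comparison asked whether the resting signature differed between SAH and control at 4 days. Of the 9 genes, 0 were called higher and 0 lower by edgeR, where 4.68% of the 14993 genes tested were called (3.13% higher and 1.54% lower). DESeq2 also called 0 of the 9, and 2 of the 9 (Fcrls and Olfml3) had an unadjusted p under 0.05, against 17.0% of all genes tested. The median log2 fold change of the 9 genes was 0.03, with 5 above and 4 below 0, and the median over all genes tested was -0.00. SAH and control ranges overlapped for all 9 genes, while 2.83% of the genes tested had all 4 SAH mice above all 6 control mice and 2.37% had them below. The lower ends of the 95% intervals lay between -0.49 (P2ry13) and 0.03 (Fcrls), so P2ry13 was the gene for which a fall was least well bounded.

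Without SAH mouse 3, an alternative set for each mouse, 2 of the 9 genes were called higher and 0 lower, against 2.75% higher and 1.02% lower of the 15119 genes then tested. All 9 log2 fold changes were then above 0, from 0.04 for P2ry12 and Sall1 to 0.50 for Olfml3, with a median of 0.16. The median over all genes then tested was -0.001. SAH mouse 3 was the lowest SAH mouse for each of the 9 genes, so leaving it out raised every value by construction. P2ry13 moved from -0.06 to 0.16, and Gpr34 from 0.03 to 0.21 (SE 0.074, unadjusted p = 0.0137, adjusted p = 0.208 by edgeR), which was not called. SAH mice 1, 2 and 4 lay above all control mice for 2 of the 9 genes, against 4.0% of the genes tested, and below all control mice for 0 of the 9, against 2.95%.

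**Figure D2:**
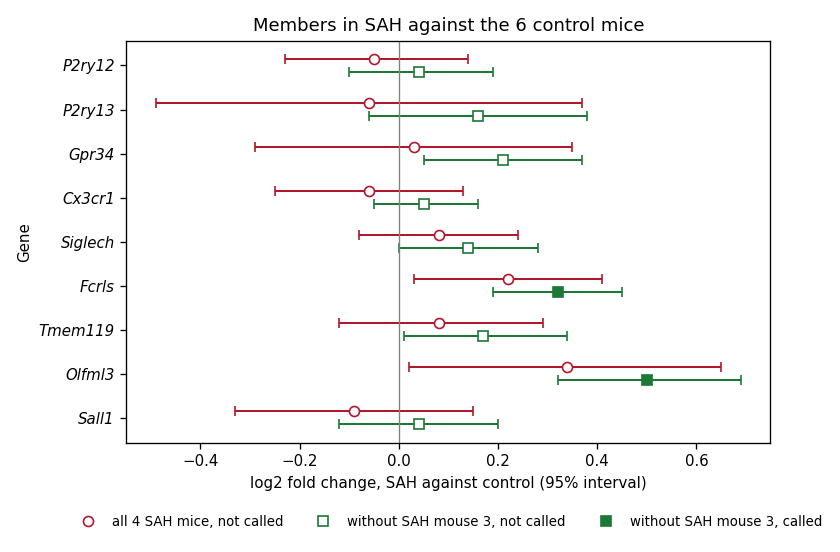
log2 fold change of each gene in SAH against the 6 control mice (horizontal axis) with its 95% interval, for all 4 SAH mice (circles) and without SAH mouse 3 (squares); filled symbols mark genes called at an adjusted p under 0.10. With all mice no gene is called, and without SAH mouse 3 all 9 values lie above 0 and Fcrls (0.32) and Olfml3 (0.50) are called.

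Against the Sham mice alone, which shared the surgery, 0 of the 9 genes were called by edgeR and 0 by DESeq2, with 0.72% of the 15134 genes tested called by edgeR. Here 0 of the 9 had an unadjusted p under 0.05, against 9.69% of all genes tested. Olfml3 had the largest difference, 0.32 (SE 0.18, adjusted p = 0.611 by edgeR), and P2ry13 the lowest, -0.12 (SE 0.24, adjusted p = 0.902). Without SAH mouse 3, Olfml3 was called higher (log2 fold change 0.49, SE 0.10, adjusted p = 0.0433 by edgeR), against 1.1% of all genes called higher, and Fcrls was not (0.29, adjusted p = 0.105).

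Against the Naive mice alone, 0 of the 9 genes were called by edgeR or DESeq2, with 2.99% of 15134 genes called by edgeR. Only Fcrls had an unadjusted p under 0.05, at a log2 difference of 0.25 (SE 0.11, adjusted p = 0.315 by edgeR), and Olfml3 stood at 0.35 (SE 0.18, adjusted p = 0.392). When SAH mouse 3 was left out, both were called higher, Fcrls at 0.35 (SE 0.075, adjusted p = 0.025 by edgeR) and Olfml3 at 0.52 (SE 0.10, adjusted p = 0.0172), against 2.21% of all genes called higher. These comparisons share the SAH mice.

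Sham surgery was compared with no surgery in the same way. All 9 log2 fold changes lay between 0.02 (Sall1) and 0.13 (P2ry12), 0 of the 9 were called by edgeR or DESeq2 and 0 had an unadjusted p under 0.05, against 2.02% of all genes tested. Of the 15134 genes, 1 was called, 0.00661% of them. The interval for P2ry12 ran from -0.10 to 0.37 and that for P2ry13 from -0.45 to 0.68, so a change of up to those sizes was not excluded at 3 mice against 3.

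SAH mouse 3 was the lowest of the 10 mice for 8 of the 9 genes and the second lowest for the remaining one, Siglech. For comparison, 26.3% of the genes tested had their lowest CPM in this mouse. It lay below all 6 control mice for 8 of the 9 genes, against 32.3% of the genes tested. Relative to the control mean its level was 45.3% for P2ry13, 59.3% for Gpr34, 67.2% for Sall1, 71.8% for Cx3cr1, 78.0% for Olfml3, 78.2% for P2ry12, 85.3% for Tmem119, 90.9% for Fcrls and 91.3% for Siglech. The shortfall was thus uneven, deepest in P2ry13 and Gpr34. SAH mouse 3 had the second lowest total of the 10, 20099076 counts, and a TMM factor of 0.985, and the part of these in its values was not tested. The 95% counting interval of P2ry13 in this mouse, 5.49 to 7.8 CPM, lay below the lowest control value of 12.1 CPM. Such intervals cover counting error only.

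At the other end, SAH mouse 4 was the highest of the 10 for 5 genes (P2ry13, Gpr34, Tmem119, Olfml3 and Sall1), SAH mouse 1 for 3 (Cx3cr1, Siglech and Fcrls) and Sham mouse 7 for P2ry12. The SAH group therefore held both the lowest and the highest mouse for 7 of the 9 genes, as it did for 18.6% of the genes tested. The SD over SAH mice was above that over control mice for all 9 genes, against 69.2% of the genes tested, and for Olfml3 it was 7.77 against 0.747 CPM. Over SAH mice 1, 2 and 4 it was above the control SD for 7 of the 9 (not for P2ry12 and P2ry13), against 50.8% of the genes tested.

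**Figure D3:**
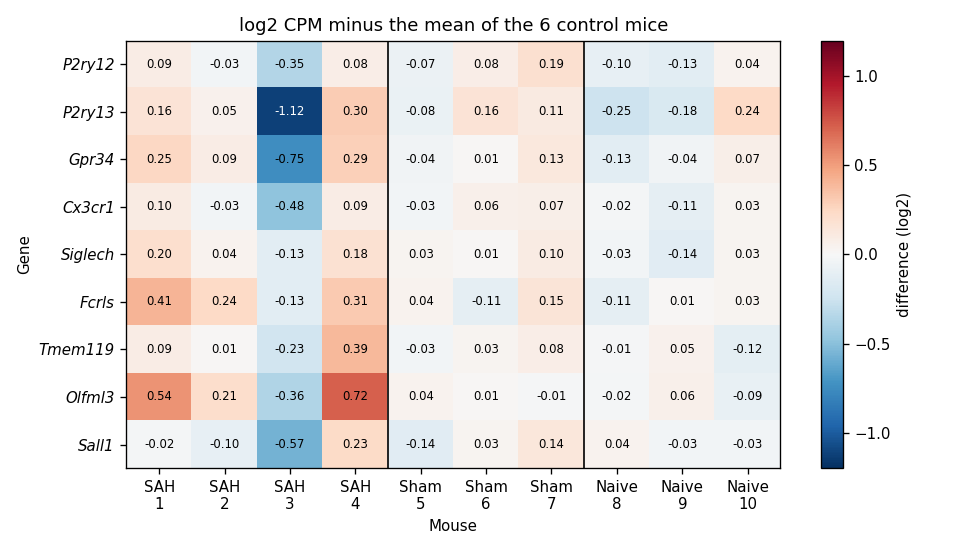
log2 CPM of each gene (rows) in each mouse (columns) minus the mean of the 6 control mice, with red above and blue below it and the value printed in each cell. The column of SAH mouse 3 is blue for all 9 genes, from -0.13 for Siglech and Fcrls to -1.12 for P2ry13, and the columns of SAH mice 1 and 4 are red for all genes except Sall1 in SAH mouse 1 (-0.02).

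Pearson's r of log2 CPM between pairs of the 9 genes, over 10 mice, was above 0 for all 36 pairs, from 0.44 (Fcrls and Sall1) to 0.97 (P2ry13 and Gpr34), with a median of 0.76. Over the 9 mice without SAH mouse 3 it was again above 0 for all 36, from 0.20 (Fcrls and Sall1) to 0.89 (Gpr34 and Fcrls), with a median of 0.63. Over all pairs of the 14993 genes tested, 49.9% were above 0 and the median was 0.00, with or without that mouse. These values describe the same libraries, which share depth and tissue makeup, and pairs of genes are not independent.

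Levels between genes were compared per kilobase of exon length. In the control mice the order was P2ry12 at 19.4 ± 1.70 CPM per kilobase (SD, n = 6), Fcrls at 14.7 ± 0.986, Cx3cr1, Olfml3, Tmem119, Siglech, Gpr34, P2ry13 and Sall1. In SAH it was P2ry12 at 18.8 ± 2.53 CPM per kilobase (SD, n = 4), Fcrls at 17.1 ± 2.66, Olfml3 at 14.9 ± 4.48, Cx3cr1 at 13.9 ± 2.40, then Tmem119, Siglech, Gpr34, P2ry13 and Sall1. Leaving out SAH mouse 3 changed the SAH order in 1 place, with Gpr34 (mean 7.47 CPM per kilobase) above Siglech (7.25) in 3 of 3 mice. Olfml3 thus stood above Cx3cr1 in mean level in SAH and below it in Sham and Naive, but it did so in 2 of the 4 SAH mice, and the ranges overlapped. In Sham and in Naive the ranges of neighbours overlapped for Fcrls and Cx3cr1, Siglech and Gpr34, Gpr34 and P2ry13, and P2ry13 and Sall1, although the genes were read in the same mice. Within mice, Gpr34 stood above P2ry13 in 6 of 6 control mice and 10 of 10 in all, whereas Fcrls stood above Cx3cr1 in 4 of 6 control mice, Siglech above Gpr34 in 3 of 6 and P2ry13 above Sall1 in 4 of 6.

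The further genes of the resting signature were described from a list of 14. With all mice, 3 of the 14 were called higher and 0 lower, with a median log2 fold change of 0.27, and DESeq2 called 4 higher. Pros1, which encodes the bridging protein S that lets phagocytes bind dying cells, rose by 0.68 (log2; SE 0.095, adjusted p = 0.00317 by edgeR), with 17.6, 15.3, 21.7 and 17.6 CPM in SAH mice 1 to 4 and 10.1 to 12.3 CPM in control. Crybb1, a crystallin gene marking early microglia, rose by 0.50 (adjusted p = 0.089) and Bhlhe41, a transcription factor gene, by 0.31 (adjusted p = 0.0617). SAH mouse 3 was the highest of the 10 mice for these 3 genes, the reverse of its place in the 9 members. Without SAH mouse 3, Pros1 was called and Crybb1 at 0.42 and Bhlhe41 at 0.23 were not, while the median was 0.28 and 14 of 14 values were above 0. With each of the 10 mice left out in turn, Pros1 was called 10 times, Bhlhe41 5 times and Crybb1 3 times, and their log2 fold changes were 0.59 to 0.76, 0.23 to 0.36 and 0.42 to 0.54. The count of 3 became 1 with SAH mouse 3 or 4, or Naive mouse 8 or 9, left out and 6 without SAH mouse 2. Against Sham alone, 1 of the 14 (Pros1) was called by edgeR and by DESeq2. Pros1 is also made by other cells of the brain.

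Genes that microglia share with other macrophages gave a second view of the myeloid cells. Of the 14 such genes, 8 rose and 0 fell (8 and 0 also without SAH mouse 3, and 4 without SAH mouse 4), with a median log2 fold change of 0.31. Against Sham alone 0 of the 14 were called by edgeR, with 9 at an unadjusted p under 0.05, a median of 0.28 and 5 called higher by DESeq2, and against Naive alone 5 were called by edgeR. Ctss, a lysosomal protease gene, rose by 0.74 (SE 0.13, adjusted p = 0.00764 by edgeR), and the 3 genes of the complement component C1q, C1qa, C1qb and C1qc, rose by 0.52, 0.48 and 0.48. C1qa had 57.1, 47.9, 72.1 and 68.6 CPM in SAH mice 1 to 4, 42.2, 44.0 and 48.1 CPM in the Sham mice, and 40.2, 38.9 and 42.9 CPM in the Naive mice, so SAH mouse 3 was the highest of all. Csf1r, the receptor gene for CSF1 and IL-34, rose by 0.29 (SE 0.062, adjusted p = 0.026 by edgeR), with 135.1, 120.9, 150.6 and 153.4 CPM in SAH and 109.2 to 122.8 CPM in control. Tyrobp, the gene of the adaptor DAP12, rose by 0.33 (SE 0.089, adjusted p = 0.0716 by edgeR), and was called in 4 of the 10 fits with a mouse left out (0.28 to 0.41).

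In SAH mouse 3 the 9 members and the shared myeloid genes went apart. The mean log2 difference from the control mean was -0.46 over the 9 members and 0.42 over the 14 shared genes, a gap of -0.87. In SAH mice 1, 2 and 4 the gaps were -0.16, -0.01 and -0.27, and in the 6 control mice they lay between -0.05 and 0.05. The control gaps center on 0 by construction, and a rise of the shared genes alone widens the gap. The gap was largest for P2ry13 (-1.54) and Gpr34 (-1.16) in SAH mouse 3 and smallest there for Siglech (-0.54). The 14 further genes of the resting signature did not share the low level of the 9 members. Their median difference in SAH mouse 3 was 0.19, against -0.08 to 0.08 in the control mice.

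**Figure D4:**
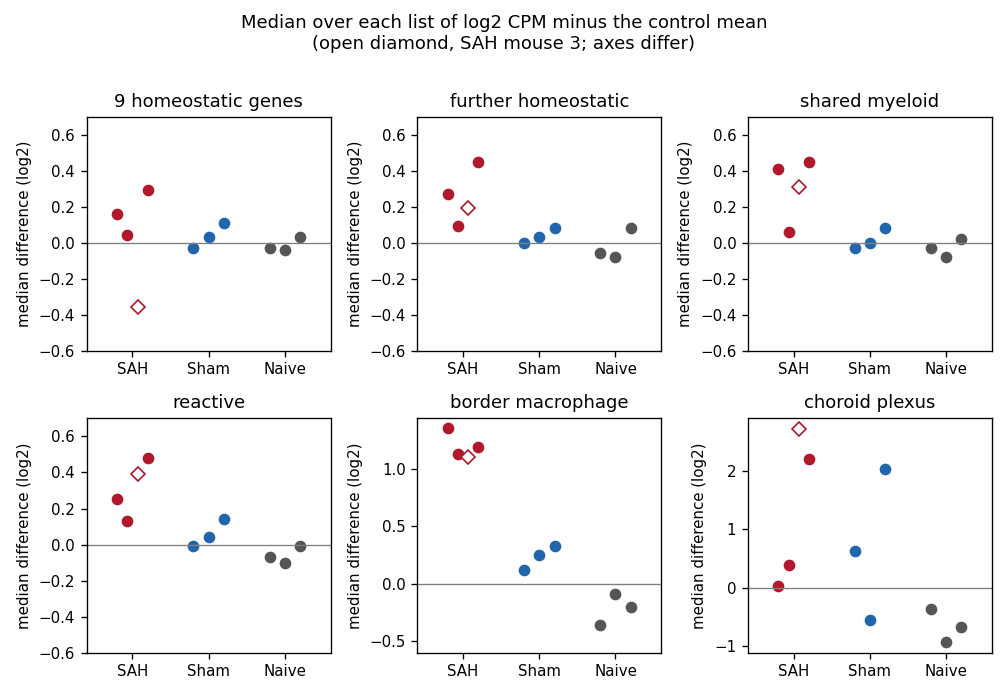
Median over the tested genes of 6 lists of log2 CPM minus the control mean (vertical axes, which differ in range) for each SAH, Sham and Naive mouse, with SAH mouse 3 as an open diamond. SAH mouse 3 is the lowest mouse for the 9 homeostatic genes (-0.36). It lies above all control mice for the further homeostatic (0.19), shared myeloid (0.31), reactive (0.39), border macrophage (1.1) and choroid plexus (2.71) lists.

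The fit was repeated with the 14 shared myeloid genes as the scale, so that each gene was measured relative to their geometric mean. On this scale 7 of the 9 genes were called lower, from -0.27 (Siglech and Tmem119) to -0.44 (Sall1), while Fcrls at -0.12 and Olfml3 at -0.02 were not called. However, 75.1% of all 14993 genes tested were called lower on this scale, and their median was -0.35, against -0.32 for the 9 members. The share of members called lower was thus near that of all genes. Without SAH mouse 3, 3 of the 9 were called lower (P2ry12, Cx3cr1 and Sall1), against 72.1% of all genes.

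Among ligands, fractalkine (Cx3cl1), which neurons make, had 622.5, 625.3, 583.7 and 652.8 CPM in SAH mice 1 to 4, 655.1, 657.9 and 657.1 CPM in the Sham mice, and 674.4, 736.2 and 666.3 CPM in the Naive mice. All 4 SAH mice lay below all 6 control mice, yet the log2 fold change of -0.12 (SE 0.042, unadjusted p = 0.0134, adjusted p = 0.164 by edgeR) was not called. Of the 3 genes of the fractalkine list, which adds the shedding proteases, 0 were called by edgeR or DESeq2 in SAH against control, and their median was -0.11, or -0.02 without SAH mouse 3. Against Naive alone DESeq2 called 1 of the 3 lower (Cx3cl1) and edgeR 0. Of the 7 genes of nucleotide handling, 0 were called by edgeR, 1 was called higher by DESeq2 (the ectonucleotidase gene Entpd1, 0.31 by edgeR), 2 had an unadjusted p under 0.05, and the median was -0.03 with 3 of 7 values above 0, or 0.10 with 5 of 7 above 0 without SAH mouse 3. For the ligands of CSF1R, Csf1 had a log2 difference of 0.13 (SE 0.044, adjusted p = 0.154 by edgeR) and Il34 of 0.04 (SE 0.059, adjusted p = 0.737), and DESeq2 called neither.

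Of the 10 genes of the TGF-beta list, 2 rose and 1 fell, with a median of 0.14, and the same count was found without SAH mouse 3. Against Sham alone 0 of the 10 were called by edgeR, with 4 at an unadjusted p under 0.05 and the same median, and 2 (Smad3 and Tgfbr2) were called higher by DESeq2. In SAH against control, Tgfbr2, the type II receptor gene, rose by 0.41 (SE 0.094, adjusted p = 0.0326 by edgeR), and had 21.2, 18.4, 24.8 and 26.8 CPM in SAH and 15.5 to 18.7 CPM in control. Smad3, a signal transducer, rose by 0.29 (SE 0.056, adjusted p = 0.0125 by edgeR). Smad7, an inhibitor that the pathway itself induces, fell by 0.38 on the log2 scale (SE 0.081, adjusted p = 0.0224 by edgeR), with 15.4, 15.1 and 16.5 CPM in SAH mice 1, 2 and 4, a lower level still in SAH mouse 3, and 16.9 to 21.1 CPM in control. The ligand gene Tgfb1 was at 4.56 to 5.64 CPM in SAH and 3.2 to 5.19 CPM in control, a log2 difference of 0.22 (SE 0.13, adjusted p = 0.403 by edgeR), which was not called. These genes are expressed by many cell types of the hippocampus.

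Of 8 transcription factor genes of microglia apart from Sall1, 2 rose and 0 fell, with a median of 0.18. Irf8 rose by 0.49 (SE 0.13, adjusted p = 0.0627 by edgeR), with 5.56, 4.93, 4.5 and 6.91 CPM in SAH and 3.39 to 4.45 CPM in control. Runx1 rose by 0.93 (SE 0.23, adjusted p = 0.0501 by edgeR), with 1.6, 1.32, 2.43 and 1.56 CPM in SAH and 0.578 to 1.14 CPM in control. With each mouse left out in turn, Irf8 was called in 5 of 10 fits (log2 fold change 0.35 to 0.57) and Runx1 in 6 of 10 (0.74 to 1.05). The count of 2 became 1 without SAH mouse 3, Sham mouse 5 or Naive mouse 9, and 0 with SAH mouse 4 or Naive mouse 8 or 10 left out. Against Sham alone 0 of the 8 were called by edgeR or DESeq2, with 4 at an unadjusted p under 0.05.

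The reactive genes, which microglia raise around injury, were followed as 17 genes, of which 16 were tested. Of these, 8 rose and 0 fell (7 and 0 without SAH mouse 3, and 5 called with SAH mouse 4 or Naive mouse 8 or 9 left out), with a median log2 fold change of 0.39. Against Sham alone 1 of the 16 (Lyz2) was called by edgeR, with 8 at an unadjusted p under 0.05 and a median of 0.35, and DESeq2 called 5. In SAH against control Lyz2, the macrophage lysozyme gene, rose by 1.77 (SE 0.12, adjusted p = 1.47e-05 by edgeR), with 4.27 to 5.91 CPM in control and 14.5 to 21.7 CPM in SAH. Spp1 (osteopontin) rose by 1.47, Cd52 by 1.07 and Gpnmb by 0.81, the last of which was called in 3 of the 10 fits with a mouse left out and stood at 0.45 without SAH mouse 3. SAH mouse 3 had the highest summed level of this list, 3348.8 CPM. Most of that sum came from Apoe, Ctsb and Ctsd, at 1827.5, 701.0 and 504.0 CPM in this mouse, so it says little about the other genes. SAH mouse 4 had the highest median difference from the control mean over the genes of the list, 0.48 against 0.39 in SAH mouse 3 (log2).

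Markers of border macrophages, which sit in the meninges and around vessels, also moved with SAH. Of 10 tested genes of 11, 8 rose and 0 fell, with or without SAH mouse 3 (5 without Naive mouse 8 or 9), and the median was 1.30. Against Sham alone 4 of the 10 (F13a1, Stab1, Mrc1 and Cd163) were called, and the median was 1.06. In SAH against control Siglec1 rose by 2.02 (SE 0.42, adjusted p = 0.0211 by edgeR), Cd163 by 1.51, F13a1 by 1.49 and Folr2, called in 2 of the 10 fits with a mouse left out, by 1.44. The summed level of the 11 genes was 38.7 to 52.5 CPM in SAH, 25.2 to 26.3 CPM in Sham and 20.4 to 22.2 CPM in Naive mice, with 0 of the 11 at 0 in any group. Of the 9 monocyte and neutrophil genes found, 0 passed the filter of edgeR in SAH against control with all mice, and DESeq2 called 1 higher, the chemokine receptor gene Ccr2, named after its values were seen. Ccr2 had 32, 24, 2 and 17 counts in SAH mice 1 to 4 and 1 to 6 counts in the control mice, so SAH mouse 3 lay inside the control range. Against Sham alone and against Naive alone Ccr2 passed the filter and was not called by edgeR, while DESeq2 called it higher against Naive. It also passed without SAH mouse 3, through the mice in which it was high, and its call there (in all 3 comparisons with SAH) is no independent support. The summed level of the 9 genes was 1.66 to 3.05 CPM in SAH and 0.564 to 1.61 CPM in control. The 8 T and natural killer cell genes summed to 0.221 to 1.04 CPM in SAH and 0.331 to 0.489 CPM in control, where Cd2 and Gzma were at 0. The part of these cells in the rises of the shared myeloid genes was not tested.

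Markers of other cells in and beside the hippocampus varied as well. The 11 choroid plexus genes summed to 111.0, 229.1, 1284.5 and 896.9 CPM in SAH mice 1 to 4, 63.2 to 860.6 CPM in Sham and 50.4 to 75.2 CPM in Naive mice, with none at 0. SAH mouse 3 was the highest, followed by SAH mouse 4 and Sham mouse 7. In SAH against control 0 of the 11 were called by edgeR or DESeq2, with 4 at an unadjusted p under 0.05 and a median of 1.25, or 0.59 without SAH mouse 3. Against Naive alone 2 of the 11 (Kcnj13 and Ttr) were called higher by edgeR and 5 by DESeq2, and against Sham alone 0 by either. Of 8 fibroblast genes, 7 rose (Ogn by 1.38, Igf2 by 1.25, Col1a2 by 1.21 and Lum by 1.13), and SAH mouse 3 had the lowest summed level of the SAH mice, 198.8 CPM against 270.4 to 371.8 CPM. Against Sham alone 3 of the 8 (Lum, Col1a2 and Igf2) were called by edgeR, 7 without SAH mouse 3, and 5 by DESeq2. Of 8 mural cell genes, 4 rose (Tagln by 0.94, Myh11 by 0.90, Acta2 by 0.78 and Vtn by 0.53), against 1 (Tagln) by edgeR and 4 by DESeq2 in SAH against Sham alone, or 3 by edgeR without SAH mouse 3. Of 8 hippocampal neuron genes 1 rose (C1ql2, by 0.34, and by 0.25 to 0.40 with a mouse left out, called in 4 of those 10 fits). The part of these cells and tissues in the values of the 9 members was not tested.

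The genes whose pattern was most like that of the 9 members were ranked by Pearson's r with the mean of the members' standardized log2 CPM, over 10 mice. The first 10 were Mro and 6330408A02Rik (r = 0.95), Gabrd, Bin2, Bank1 and Tars (0.94), Zfp825 and Rbbp9 (0.93), and Tnfsf12 and Yap1 (0.92). For all 10 the level in SAH mouse 3 lay below that of every other mouse, as with Mro at 9.9 CPM against 11.4 to 13.8 CPM. Without SAH mouse 3 the first 10 were other genes, led by Ly86 (r = 0.98), of the further resting signature, and Prdx6 (0.97). Then came Cyld, Mapk4, Havcr2, Naaa, Itm2b, C1qa and Tfcp2l1 (0.96), and Itgb5 (0.95). The likeness over 10 mice therefore rests on that 1 mouse.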

How the data were processed

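Bulk RNA-seq counts were analysed for 10 mice. According to the study's methods and the file headers, reads were mapped by the authors to mm9 (STAR, default settings) and counted with featureCounts 1.6.2 (reverse-stranded, read pairs, exons of the UCSC iGenomes annotation summed by gene name). Reads with several positions or on more than 1 gene were left out, which can lower genes with near-identical copies. The deposited values are raw counts per gene name. Groups came from the labels.

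Tests were quasi-likelihood F tests of edgeR 4.0.16 (R 4.3.3) after TMM and filterByExpr (minimum count 10, minimum total 15), with Benjamini-Hochberg adjustment over all genes tested. SAH was compared with Sham and Naive pooled, as in the study, and pairwise in a fit of 3 groups. Standard errors were the log2 fold change over the square root of F. log2 CPM used a prior count of 2. DESeq2 1.42.0 was an alternative. The steps were tested on simulated data. Exon ends equalled those of the mm9 reference for 86.7% of all exons and 25 of the 34 exons (73.5%) of the members. Promoters were taken from RefSeq (GRCm38.p6), and a motif was counted on both strands. Python 3.11.15 was used with pandas 2.3.3, numpy 2.4.6 and matplotlib 3.10.9.

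The members, the lists and the naming rule were chosen with earlier results of these data known. Named were the 9 members in every mouse, the direct partners Cx3cl1, Tyrobp, Tgfb1, Csf1r, Csf1 and Il34, the called genes of the nucleotide, fractalkine, TGF-beta, CSF1 and transcription factor lists, up to 4 called genes with the largest changes of each other list, genes overlapping a member, and the 10 genes most like the members. Alternatives were DESeq2, DESeq2 size factors or library size alone in edgeR, other filters, an adjusted p under 0.05, other sets of mice, and each mouse left out in turn. A fit with a smaller set of shared myeloid genes as the scale is not reported here. Leaving each mouse out of the lists, and naming the first 10 likeness genes without SAH mouse 3, was chosen after seeing the data.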

Additional observations from a re-analysis of the deposited data

Results flagged for a closer look

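None of the 9 members had a mouse far enough from the rest of its group to be marked by Dixon's test, and 3 summed lists did, of 48 groups tested in all. The test marks about 1 group in 20 by chance. Naive mouse 9 had 859.2 CPM over the 3 fractalkine genes, against 769.9 to 789.8 CPM in the other control mice. Sham mouse 7 had 860.6 CPM over the 11 choroid plexus genes, against 50.4 to 223.2 CPM in the other control mice. SAH mouse 4 had 250.0 CPM over the 8 mural cell genes, against 185.1 to 194.9 CPM in the other SAH mice.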

How the results depend on the processing

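Of 666 alternative values of single members, 622 kept their direction and their side of the threshold. The number of members called in SAH against control was 0 under DESeq2, DESeq2 size factors, library size alone, no filter, the stricter filter, an adjusted p under 0.05 and 3 separate groups. With each mouse left out it was 0 to 2, and it was 0 to 1 against Sham, 0 to 2 against Naive and 0 in Sham against Naive. Each rise came without SAH mouse 3, and the cause was not tested. The members lower relative to the shared myeloid genes were 7 of 9 with all mice, against 75.1% of all genes tested. They were 3 of 9 without SAH mouse 3, against 72.1% of all genes, and 3 to 8 with a mouse left out. With each mouse left out, the genes called in SAH against control were 4 to 10 of the shared myeloid list, 1 to 6 of the further resting signature, 5 to 9 of the reactive, 5 to 8 of the border macrophage, 2 to 4 of the TGF-beta, 0 to 3 of the transcription factor and 6 to 7 of the fibroblast list. On that scale Olfml3 lay between -0.10 and 0.16 with a mouse left out.

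The direction of small values turned with 1 mouse left out. In SAH against control the ranges were -0.09 to 0.04 for P2ry12, -0.20 to 0.16 for P2ry13, -0.07 to 0.21 for Gpr34, -0.12 to 0.05 for Cx3cr1, -0.04 to 0.17 for Tmem119 and -0.21 to 0.04 for Sall1. Against Sham they were -0.26 to 0.11 for P2ry13, -0.10 to 0.18 for Gpr34, -0.15 to 0.02 for Cx3cr1, -0.01 to 0.09 for Siglech, -0.06 to 0.15 for Tmem119 and -0.22 to 0.03 for Sall1. Against Naive they were -0.02 to 0.11 for P2ry12, -0.14 to 0.22 for P2ry13, -0.04 to 0.24 for Gpr34, -0.09 to 0.08 for Cx3cr1, -0.01 to 0.20 for Tmem119 and -0.20 to 0.05 for Sall1, and P2ry13 was at 0.00 with at least 10 counts in every mouse and at 0.01 with library size alone. In Sham against Naive they were -0.01 to 0.12 for Fcrls, -0.00 to 0.07 for Olfml3 and -0.05 to 0.09 for Sall1. Fcrls and Olfml3 stayed above 0 in the 3 comparisons with SAH.

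Over the control mice the SD was 3.63 (Olfml3) to 13.6% (P2ry13) of the mean, where counting error alone gives 2.74 to 5.79%, so for Olfml3, Siglech, Tmem119 and Gpr34 the spread was near that error. Over the SAH mice the SD was 10.3 to 36.0%, and 4.7 to 17.4% without SAH mouse 3. No paired analysis was possible because each mouse has a number of its own.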
